A study of Homo sapiens with 36 samples.

Results

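This account is of 1 experiment, the response of HCC827 cells to 6-thio-dG alone. It was chosen by design, as the deposited comparison of the THIO arm of HCC827 with the arm that the table's header calls RNA, and it rests on 4 of the 36 libraries of the series, 2 a side. HCC827 is a lung adenocarcinoma line whose growth is driven by a mutant epidermal growth factor receptor (EGFR). 6-thio-dG is a guanine deoxynucleoside with a sulphur atom in its base, which telomerase can add to telomeres. The header's RNA arm was read as CTRL, the cells given the solvent DMSO, and is called the reference arm here. Both arms were harvested after 3 days.

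Besides this comparison, 2 others of the table are used only to show where HCC827 under 6-thio-dG differs. These are 6-thio-dG (THIO) against the reference arm in A375, a BRAF-mutant melanoma line, and, in HCC827, 6-thio-dG given with the EGFR inhibitor osimertinib (COM) against the arm the header calls TKI1, read as osimertinib alone (TKI). Each has 2 libraries a side and 3 days of treatment, and on this reading the 3 comparisons share no library. Nothing in the labels says that the libraries of an arm came from separate cultures, so the errors may hold technical spread only. mRNA was captured by its poly(A) tail. For each of 11828 genes the authors deposited a fold change on the log2 scale with its raw and adjusted p, and no level per library, so no value per sample, no depth and no level of any gene can be given here. The error printed beside a fold change is the standard error (SE) that the change and its p-value imply, and its median over genes was 0.212 on the log2 scale.

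The biology in view is the following. Cells license origins of replication in G1 by loading the MCM helicase, then activate it and copy DNA in S phase, and the genes for these steps are switched on together by E2F transcription factors once cyclin and CDK activity inactivates RB. Damaged DNA or shortened telomeres can stop this program through p53, whose targets include the CDK inhibitor gene CDKN1A. A thiopurine deoxynucleoside enters DNA after phosphorylation by kinases of the nucleotide salvage pathway, and mismatch repair proteins can recognise it there.

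At the authors' adjusted p under 0.05, 3455 of the 11828 genes (29.2%) were called, 1749 higher (14.8%) and 1706 lower (14.4%) under 6-thio-dG. Of these, 998 changed at least 2-fold, 482 up and 516 down. Among the lists described below, 41 of 59 replication genes and 15 of 21 cytosolic heat shock genes rose, and none of either fell. All 13 mitochondrially encoded genes fell, as did 15 of 18 listed replication-dependent histones, 11 of 18 complement and acute phase genes, and 10 of 27 chaperones and folding enzymes of the endoplasmic reticulum (ER). The median log2 fold change over all genes was 0.00942. All lists below are read against the shares of 14.8% and 14.4%, and their members were chosen with earlier results of these data known.

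The label of the line was checked only by which markers the table lists, since it holds no level. Of 11 lung epithelial markers, 10 were listed, among them NKX2-1 and NAPSA. Of 7 melanocyte markers 2 were listed (MITF and PMEL), of 7 fibroblast markers 1 (COL1A1), of 11 leukocyte markers 1 (CD68) and of 7 endothelial markers 1 (CDH5). CD68, a lysosomal protein also made outside leukocytes, was the only one of those 5 that was called, and it rose. A gene is listed for every comparison at once, so a listed marker need not be expressed in HCC827.

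**Figure D1:**
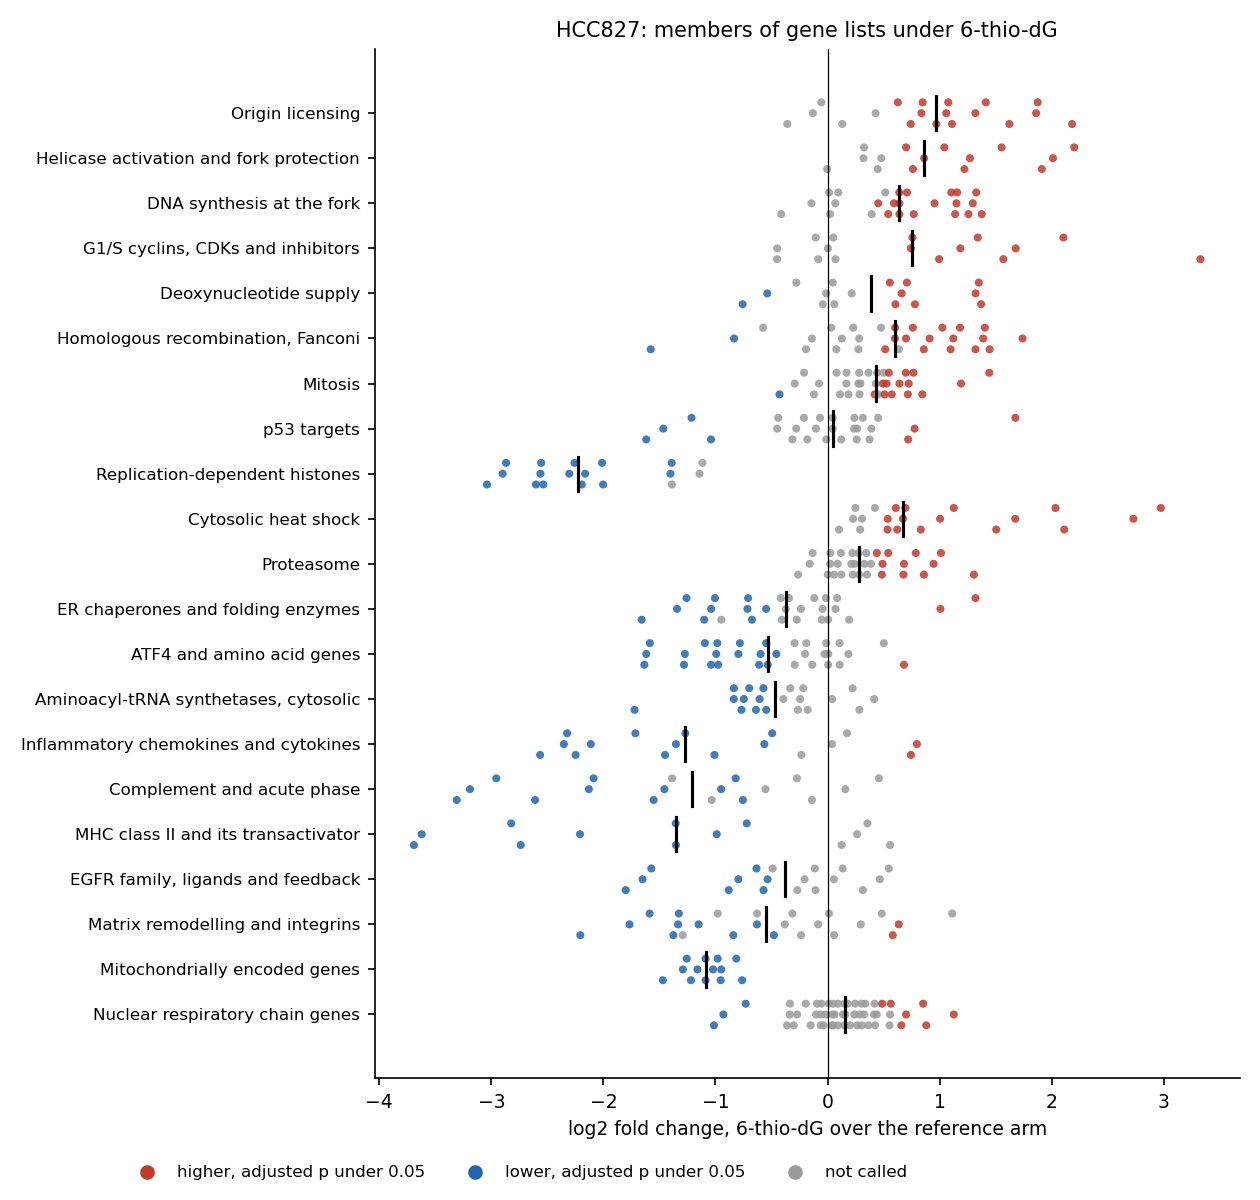
Each point is a gene of a named list, placed by its log2 fold change under 6-thio-dG over the reference arm in HCC827, and coloured by the authors' adjusted p. Black bars are list medians, which run from -2.23 for replication-dependent histones to 0.97 for origin licensing.

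Promoter sequences of 6 called members of the lists are given here, with the letters of a transcription factor's binding motif in capitals. They are the RefSeq windows of GRCh38.p14 from 250 bases before to 50 after the transcription start, 5′ to 3′ on the gene's strand. In each list the called member with the smallest p was taken, among those with a single window that holds the letters. E2F1, the E2F transcription factor that drives the G1 to S transition, and CDT1, which loads MCM at origins, show an E2F motif. CDC20, which switches on the anaphase-promoting complex, shows the cell cycle genes homology region (CHR) at 2 places. HSPA8, the constitutive cytosolic HSP70, shows the heat shock element at 2 places. CXCL1, a neutrophil chemokine, shows an NF-kB motif, and HSPA5, the ER chaperone BiP, shows the ER stress element.
E2F1 at chr20:33686336-33686635, minus strand: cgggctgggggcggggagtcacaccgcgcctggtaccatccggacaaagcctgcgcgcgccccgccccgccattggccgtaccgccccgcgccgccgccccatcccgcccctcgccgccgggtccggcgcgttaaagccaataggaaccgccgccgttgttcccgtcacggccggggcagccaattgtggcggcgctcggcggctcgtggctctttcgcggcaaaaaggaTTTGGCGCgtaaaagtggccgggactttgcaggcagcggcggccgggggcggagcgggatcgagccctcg
CDT1 at chr16:88803539-88803838, plus strand: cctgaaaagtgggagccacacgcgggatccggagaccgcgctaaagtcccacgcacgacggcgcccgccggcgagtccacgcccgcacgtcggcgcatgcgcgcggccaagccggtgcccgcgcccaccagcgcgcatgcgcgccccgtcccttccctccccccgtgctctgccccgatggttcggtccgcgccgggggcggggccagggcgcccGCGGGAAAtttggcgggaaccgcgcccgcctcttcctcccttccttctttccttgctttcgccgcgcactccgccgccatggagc
CDC20 at chr1:43358731-43359030, plus strand: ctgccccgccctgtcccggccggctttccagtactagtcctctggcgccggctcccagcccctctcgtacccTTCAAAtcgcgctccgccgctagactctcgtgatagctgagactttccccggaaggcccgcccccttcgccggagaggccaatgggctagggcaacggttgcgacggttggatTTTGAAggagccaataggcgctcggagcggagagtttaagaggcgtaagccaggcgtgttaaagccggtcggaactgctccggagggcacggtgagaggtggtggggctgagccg
HSPA8 at chr11:123062087-123062386, minus strand: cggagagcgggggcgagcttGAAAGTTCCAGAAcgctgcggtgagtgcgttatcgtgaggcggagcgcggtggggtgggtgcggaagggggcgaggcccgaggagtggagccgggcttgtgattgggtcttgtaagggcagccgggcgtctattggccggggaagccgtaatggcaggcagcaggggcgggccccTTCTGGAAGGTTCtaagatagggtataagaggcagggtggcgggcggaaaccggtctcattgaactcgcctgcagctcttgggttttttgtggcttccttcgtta
CXCL1 at chr4:73869143-73869442, plus strand: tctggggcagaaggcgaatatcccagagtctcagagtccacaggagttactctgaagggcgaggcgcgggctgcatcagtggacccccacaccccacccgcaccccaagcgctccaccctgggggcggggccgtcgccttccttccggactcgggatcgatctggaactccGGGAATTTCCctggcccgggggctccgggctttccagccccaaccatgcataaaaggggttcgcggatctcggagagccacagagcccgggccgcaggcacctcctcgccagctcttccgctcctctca
HSPA5 at chr9:125241294-125241593, minus strand: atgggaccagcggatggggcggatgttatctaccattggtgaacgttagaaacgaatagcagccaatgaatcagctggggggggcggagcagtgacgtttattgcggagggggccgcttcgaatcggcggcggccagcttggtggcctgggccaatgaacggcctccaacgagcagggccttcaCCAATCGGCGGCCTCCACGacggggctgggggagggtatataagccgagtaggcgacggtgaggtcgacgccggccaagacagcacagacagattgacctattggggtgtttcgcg

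The replication machinery rose together. Of 59 genes in the lists of origin licensing, helicase activation and fork protection, and DNA synthesis at the fork, 41 rose, none fell, and the median log2 fold change was 0.77. All of the 19 origin licensing genes were listed and 14 rose, with a median of 0.97. ORC1, the largest subunit of the origin recognition complex, was 4.54-fold higher (95% interval 3.35 to 6.14), and CDT1 was 3.63-fold higher (2.82 to 4.68). In the authors' deposited table the log2 fold changes of the 6 subunits of the MCM helicase were 1.11 for MCM2, 0.97 for MCM3, 1.62 for MCM4, 1.06 for MCM5, 0.85 for MCM6 and 1.08 for MCM7, each called. ORC6 (1.88), MCM10 (1.41), which helps activate the loaded helicase, CDC6 (1.32), the MCM loader, and GMNN (0.84), the inhibitor of CDT1, rose too in the authors' deposited table. ORC2, ORC3, ORC4, ORC5 and MCM9 were not called, with values from -0.36 to 0.43 there. Bulk RNA cannot tell more cells in S phase from more RNA of these genes per cell.

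Of 15 genes of helicase activation and fork protection, 10 rose, with a median of 0.86. CLSPN, the checkpoint adaptor claspin, was 4.60-fold higher (95% interval 3.25 to 6.51). GINS4 and GINS2, subunits of the GINS complex that joins MCM and CDC45, were 4.03-fold (3.02 to 5.37) and 3.76-fold (2.85 to 4.98) higher. In the authors' deposited table the other subunits were at log2 1.27 for GINS1, which was called, and 0.33 for GINS3, which was not. DBF4 and CDC7, the subunits of the kinase that fires origins, were not called there, at -0.00 and 0.45. Of 25 genes of DNA synthesis at the fork, 17 rose and none fell, against 14 and 1 with the trend on transcript GC content removed, and the median was 0.64. The replication clamp PCNA was 1.94-fold higher (1.54 to 2.43). POLE2 (1.38), of polymerase epsilon, PRIM2 (1.33), of primase, the nuclease and helicase DNA2 (1.30), and FEN1 (1.26), which cuts Okazaki fragment flaps, led the list in the authors' deposited table.

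Upstream of these genes, 8 of 19 members of the E2F, RB and DREAM list rose and 2 fell. E2F1 was 3.87-fold higher (95% interval 3.00 to 5.00), and among E2F1 to E2F8 the authors' deposited table also called rises of E2F2 (log2 1.60), E2F7 (1.17) and E2F8 (1.80) and a fall of E2F5 (-0.84). MYBL2, an activator of late cell cycle genes, was 2.76-fold higher (2.20 to 3.46), and the RB relative RBL2, a repressor, fell by 1.27 on the log2 scale. Of 16 listed G1 to S cyclins, CDKs and their inhibitors 9 rose and none fell, against 8 and 2 with the trend on GC content removed. Cyclin E2 (CCNE2) had the largest fold change of the list and was 10.0-fold higher (6.54 to 15.4), cyclin D3 (CCND3) was 4.30-fold higher (3.29 to 5.63), and the phosphatase CDC25A, which activates CDK2, was 3.20-fold higher (2.42 to 4.25). CDK2 rose by 1.34, cyclin E1 (CCNE1) by 1.19 and cyclin A2 (CCNA2) by 0.74 on the log2 scale, while cyclin D1 (CCND1) was at 0.00 in the authors' deposited table. CDK inhibitor genes were among the rises too, with CDKN2D at 1.57 and CDKN2C at 1.00 there. The inhibitor genes CDKN1A, CDKN1B, CDKN1C and CDKN2A were not called.

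Deoxynucleotide synthesis and repair genes rose as well, though less uniformly. Of 16 listed genes of deoxynucleotide supply 8 rose and 2 fell. RRM2, a subunit of ribonucleotide reductase, was 2.58-fold higher (95% interval 2.02 to 3.31), and thymidylate synthase (TYMS) was 2.55-fold higher (1.99 to 3.25). Mitochondrial thymidine kinase (TK2) fell by 0.76 on the log2 scale in the authors' deposited table, where its cytosolic counterpart TK1 rose by 1.32. Of 29 listed genes of homologous recombination, the Fanconi pathway and the replication checkpoint 16 rose and 2 fell, with a median of 0.60. The damage kinase ATM was 2.98-fold lower (2.10 to 4.24), whereas XRCC3 (1.45) and FANCA (1.39), of recombination and the Fanconi core complex, rose in the authors' deposited table. Of 8 mismatch repair genes 3 rose and 1 fell, and in the authors' deposited table EXO1 (1.67), a nuclease, and MSH6 (0.67), a mismatch recognition subunit, were among the rises and MSH3 (-0.91) was the fall.

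Genes that handle the drug itself went both ways. Of 20 genes on this list 5 rose and 4 fell, with a median of 0.11. The nucleoside transporter SLC29A1 was 1.91-fold higher (95% interval 1.45 to 2.51), and HPRT1, which converts thioguanine to its nucleotide, was 1.63-fold higher (1.23 to 2.15). XDH, the xanthine oxidase gene, was 6.80-fold lower (4.60 to 10.1), and TPMT, which methylates thiopurines, was 1.54-fold lower (1.16 to 2.04). Of 26 listed telomerase and telomere proteins 5 rose and 4 fell, with a median near 0. In the authors' deposited table DCLRE1B (1.22), a telomere end nuclease, WRAP53 (0.89), which brings telomerase to Cajal bodies, and ACD (0.88), a shelterin subunit, rose, and DKC1 (-0.74), a subunit of the telomerase particle, fell.

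Of 33 listed mitotic genes 14 rose and 1 fell, and the median was 0.43. This list was not tested against the replication lists. Cyclin F (CCNF) rose by 1.44 on the log2 scale in the authors' deposited table, and CDC20 was 2.28-fold higher (95% interval 1.80 to 2.89). Cyclin B1 (CCNB1) rose by 0.72 on the log2 scale in the authors' deposited table, where PLK1 (0.28), CDK1 (0.17), TOP2A (-0.12) and MKI67 (0.36) were not called. p53 targets had no common direction. Of 27 listed, 3 rose and 4 fell, with a median of 0.05. The translesion polymerase gene POLH (1.68), PPM1D (0.78), a phosphatase that dampens p53, and TP53I3 (0.72) rose in the authors' deposited table. CDKN1A was at -0.45 (adjusted p = 0.054) and MDM2 at -0.28 (adjusted p = 0.32), both not called, in the authors' deposited table. GADD45A (2.76-fold lower, 2.20 to 3.47), GDF15 (2.32-fold lower, 1.80 to 3.00) and SESN2 (3.07-fold lower, 2.45 to 3.84) fell, as did the death receptor gene TNFRSF10B (-1.04 in the authors' deposited table). SESN2 is also a member of the ATF4 list below.

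**Figure D2:**
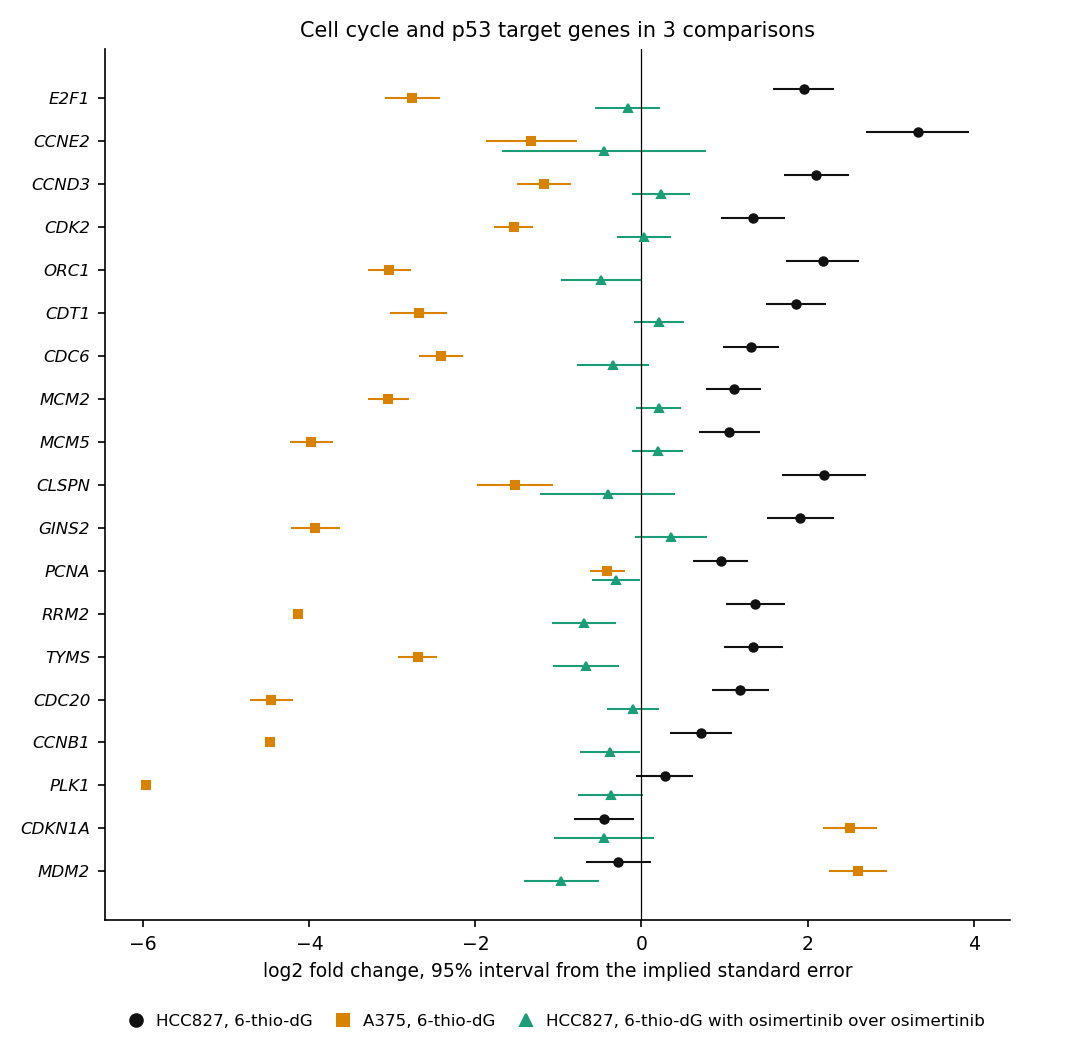
Points are log2 fold changes of 19 cell cycle and p53 target genes in 3 comparisons, with lines for the 95% interval from the implied standard error. In HCC827 under 6-thio-dG alone (black) the 17 genes from E2F1 to PLK1 lie above 0, PLK1 with an interval that spans 0, while CDKN1A and MDM2 lie above 0 in A375 (orange) and below it in both HCC827 comparisons. RRM2, CCNB1 and PLK1 have no interval in A375 because their p-value is listed as 0.

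Replication and mitosis genes held different motifs in their promoters. The E2F letters TTTCGCGC, TTTCCCGC or TTTGGCGC, on either strand, occurred in 343 of the 6769 promoter windows searched (5.07%), those of genes with a single window. Among called rises the share was 7.42% (78 of 1051), and among called falls 3.22% (29 of 900). It was 7 of 13 for origin licensing, 5 of 8 for helicase activation and fork protection, 7 of 16 for DNA synthesis at the fork, and 1 of 22 for mitosis. The CHR letters TTTGAA or TTTAAA gave the opposite picture, in 964 windows overall (14.2%), in 21 of 22 for mitosis, and in 0 of 13, 1 of 8 and 0 of 16 for the 3 replication lists. Among called rises the CHR share was 15.9% and among called falls 15.1%. The CHR letters were added after the data were seen. A match describes the letters of a window and shows no binding.

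Replication-dependent histones went against the rest of S phase. Of 58 such genes 18 were listed, 15 of these fell, none rose, and the median was -2.23. H2BC21 was 8.22-fold lower (95% interval 5.83 to 11.6), and H2AC6 was 7.46-fold lower (5.74 to 9.69). The pairs H4C14 and H4C15, and H2AC18 and H2AC19, are near-identical copies, so their values are uncertain. SLBP, which binds the stem-loop at the end of these mRNAs, was 2.30-fold higher (1.83 to 2.89). Histone mRNAs of this class mostly lack the poly(A) tail by which mRNA was selected here, and the part of that in the result was not tested. Of 9 listed replication-independent histones, 2 rose and 3 fell. The variant H2AZ1 rose by 0.86 on the log2 scale in the authors' deposited table.

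Cytosolic and ER chaperones moved apart. Of 21 cytosolic heat shock genes 15 rose, none fell, and the median was 0.67. HSPA1A and HSPA1B, the stress-inducible HSP70 genes, were 7.86-fold (95% interval 6.09 to 10.1) and 6.63-fold (5.17 to 8.50) higher, but they are near-identical copies, so how their reads divide is uncertain. HSPA8 was 4.32-fold higher (3.28 to 5.70), and HSP90AA1, the inducible HSP90, was 4.09-fold higher (3.28 to 5.11). HSPB1 (HSP27), HSPH1 (a nucleotide exchange factor of HSP70) and BAG3 (an HSP70 co-chaperone) were 3.19-fold (2.40 to 4.25), 2.84-fold (2.20 to 3.67) and 2.18-fold (1.67 to 2.85) higher. HSF1, the transcription factor of the response, was not called in the authors' deposited table, at 0.42. The mitochondrial chaperone HSPD1 (0.25), which the list includes, and the chaperonin subunits CCT2 (0.29) and CCT5 (0.23) were not called there either. HSPE1, also mitochondrial, rose by 0.69 there, so the list is not purely cytosolic.

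Of 27 ER chaperones and folding enzymes 10 fell and 2 rose, with a median of -0.37. HSPA5 was 3.16-fold lower (95% interval 2.56 to 3.89), and HSP90B1, the ER HSP90, was 2.54-fold lower (2.02 to 3.18). HYOU1 (-1.04), DNAJB9 (-1.26) and PDIA4 (-0.71), all of them chaperones or folding enzymes, fell, calnexin (CANX, -0.02) and calreticulin (CALR, -0.05) were not called, and SDF2L1 rose by 1.32 in the authors' deposited table. Of 35 listed genes for ER stress sensors, ER-associated degradation and translocation 14 fell and 1 rose. ERN1, the sensor IRE1, was 3.67-fold lower (2.74 to 4.91), and the mRNA it splices, XBP1, fell by 0.99 on the log2 scale in the authors' deposited table. Proteasome subunits rose, 11 of 31, with none falling and a median of 0.28. PSMB6, a catalytic subunit, was 2.47-fold higher (1.82 to 3.36).

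**Figure D3:**
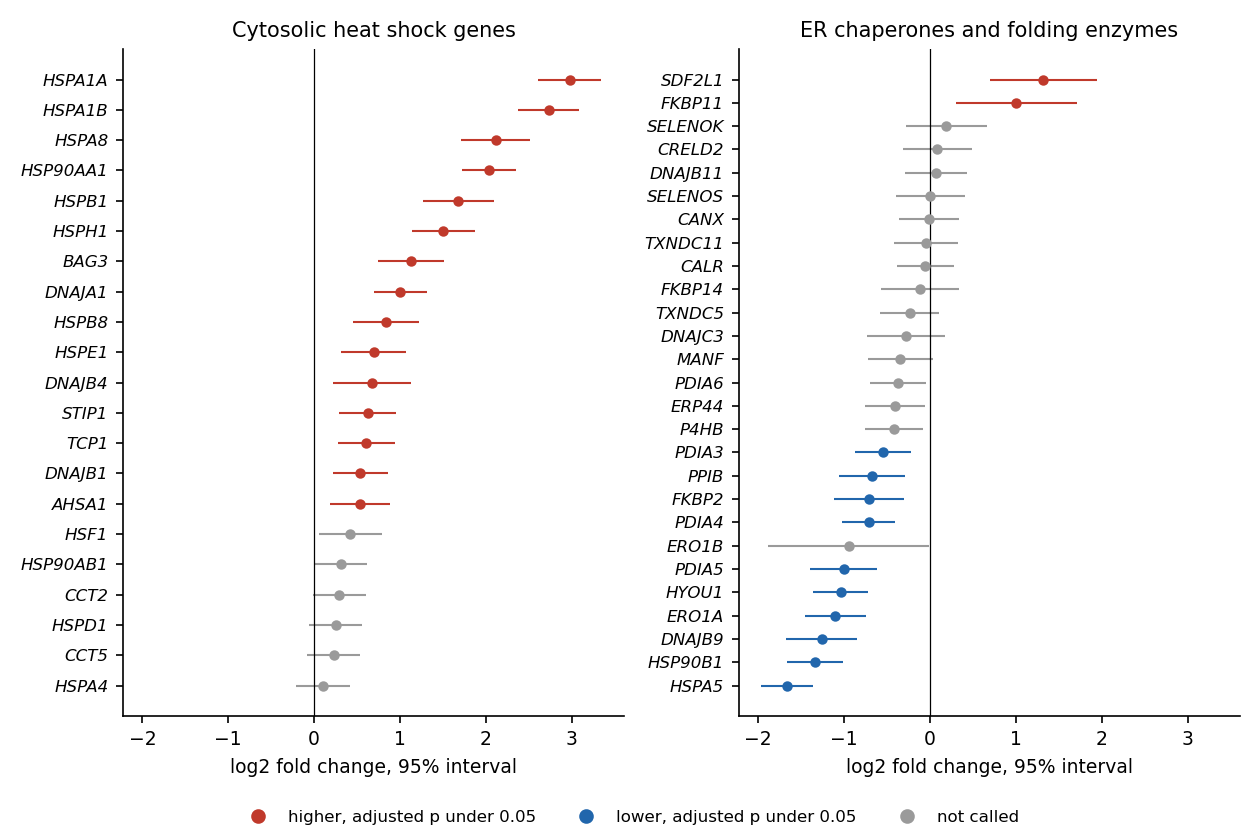
Points are log2 fold changes under 6-thio-dG in HCC827 with 95% intervals from the implied standard error, for 21 cytosolic heat shock genes and 27 ER chaperones and folding enzymes. HSPA1A stands highest at 2.97, and HSPA5 lowest at -1.66.

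Motif letters of these groups were rare in promoters. The ER stress element, CCAAT and CCACG with 9 bases of any kind between them, occurred on either strand in 12 of 6769 windows (0.177%), and 5 of these belonged to the 19 ER chaperones and folding enzymes with a window, namely HSPA5, HSP90B1, CALR, CRELD2 and ERO1B. Only HSPA5 and HSP90B1 of these 5 were called. Among all called rises 0 of 1051 windows held the ER stress element, and among all called falls 4 of 900 (0.444%). The heat shock element, GAA, TTC and GAA or TTC, GAA and TTC with 2 bases of any kind after each of the first triplets, also added after the data were seen, occurred in 16 windows (0.236%). HSPA8 and DNAJA1 held it among 12 cytosolic heat shock genes with a window. The heat shock element was in 7 of 1051 windows of called rises (0.666%) and in 3 of 900 of called falls (0.333%). The CCAAT letters, which the ER stress element contains, were in 38.1% of all windows, 40.9% of called rises and 36.1% of called falls.

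The amino acid response fell. Of 31 listed ATF4 and amino acid genes 17 fell and 1 rose, with a median of -0.53. TRIB3, a pseudokinase, was 3.11-fold lower (95% interval 2.45 to 3.93), and DDIT3, the stress factor CHOP, was 3.00-fold lower (2.21 to 4.07). ATF4 itself was at -0.29 in the authors' deposited table and was not called, and asparagine synthetase (ASNS) fell by 0.60 there. Of 20 cytosolic aminoacyl-tRNA synthetases 10 fell and none rose, led by the isoleucine enzyme IARS1, 3.30-fold lower (2.50 to 4.36). Ribosomal protein genes moved little, with 7 of 61 lower, none higher and a median of -0.11.

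Of 17 listed chemokines and cytokines 12 fell and 2 rose, with a median of -1.27. IL1A, an alarmin cytokine, was 5.92-fold lower (95% interval 4.57 to 7.67), and CXCL1 and CXCL2 were 5.01-fold (3.92 to 6.39) and 5.11-fold (3.92 to 6.65) lower. CXCL8 was 4.32-fold lower (3.40 to 5.50). IL18 rose by 0.80 on the log2 scale in the authors' deposited table. Of 20 genes for NF-kB subunits and feedback 10 fell and 1 rose. NFKBIZ, an inducible co-regulator, was 3.77-fold lower (2.78 to 5.13), and SOD2, a classic NF-kB target, was 3.79-fold lower (3.00 to 4.79). RELA, the main activating subunit, was at 0.22 and not called in the authors' deposited table.

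Of 18 listed complement and acute phase genes 11 fell, none rose, and the median was -1.21. C3, the central complement component, was 9.91-fold lower (95% interval 7.99 to 12.3), the protease inhibitor SERPINA3 was 9.13-fold lower (6.93 to 12.0), the iron-siderophore binder LCN2 was 7.76-fold lower (5.94 to 10.1), and complement factor B (CFB) was 6.11-fold lower (4.90 to 7.60). Of 13 listed MHC class II genes 9 fell and none rose, with a median of -1.35. CD74, the invariant chain, was 12.9-fold lower (9.77 to 17.1), HLA-DRA was 12.3-fold lower (8.77 to 17.3), and the transactivator CIITA fell by 0.72 on the log2 scale in the authors' deposited table. Values of HLA-DRB1 and HLA-DRB5, near-identical paralogs, are uncertain. Of 20 MHC class I and peptide loading genes 8 fell and 1 rose. Interferon stimulated genes had no common direction, with 7 of 42 higher and 6 lower and a median of 0.13. Of 10 listed genes of nucleic acid sensing 3 rose and 3 fell, with a median of -0.25.

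The NF-kB letters GGG and TTTCC with 2 bases of any kind between them, on either strand, occurred in 164 of 6769 windows (2.42%), in 2.38% of called rises and in 3.56% of called falls. Among chemokines and cytokines 4 of 8 windows held them, those of CXCL1, CXCL2, CXCL3 and IL6, and among NF-kB subunits and feedback genes 4 of 7, those of REL, NFKBIA, TNFAIP3 and BIRC3. None of 7 complement and acute phase windows did.

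Genes of the EGFR pathway that drives this line fell in part. Of 18 listed members of the EGFR family, its ligands and feedback 8 fell and none rose, with a median of -0.38. The ligand amphiregulin (AREG) was 3.14-fold lower (95% interval 2.33 to 4.22), epiregulin (EREG) 3.48-fold lower (1.55 to 7.82), and EGFR itself 1.49-fold lower (1.12 to 1.97). Of 21 genes of ERK feedback and output 7 fell and 3 rose. The ERK phosphatase DUSP6 fell by 0.85 on the log2 scale in the authors' deposited table, while SPRY4 (0.03) and ETV4 (0.00) were not called. EMP1 (1.11) and ETV5 (0.51) rose there. Of 20 listed immediate early and MYC family genes 10 fell and 2 rose. MYC fell by 0.85 in the authors' deposited table, and KLF2, a transcription factor of quiescence in endothelium and lymphocytes, rose by 2.32.

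Of 24 listed matrix remodelling genes and integrins 10 fell and 2 rose, with a median of -0.55. The matrix glycoprotein tenascin C had the lowest log2 fold change of the list, -2.21, and in the authors' deposited table the hemidesmosome collagen COL17A1 (-1.77), the urokinase gene PLAU (-1.59) and the integrin ITGB1 (-1.38) fell. Of 14 listed mesenchymal and contractile genes 6 fell and 2 rose, with fibronectin (FN1) 4.32-fold lower (3.33 to 5.59) and vimentin (VIM) at 0.71 in the authors' deposited table. Of 30 listed epithelial junction and keratin genes 7 fell and 4 rose. E-cadherin (CDH1) was 2.04-fold lower (1.63 to 2.57), and the keratin KRT8 rose by 0.92 on the log2 scale in the authors' deposited table. Of 12 listed lung secretory, alveolar and mucin genes 5 fell and 1 rose, with a median of -0.58. The airway mucin MUC5B was 11.7-fold lower (9.27 to 14.7), and in the authors' deposited table the membrane mucin MUC4 fell by 2.82, MUC13 rose by 1.21 and MUC5AC, at -0.80, was not called.

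All 13 mitochondrially encoded genes fell, with log2 fold changes from -1.47 to -0.76 and a median of -1.09. MT-ND4, of complex I, was 2.77-fold lower (95% interval 2.02 to 3.79), and MT-ND6, the gene on the light strand, was 1.70-fold lower (1.26 to 2.27). All 13 share the mitochondrial genome and are cut from polycistronic transcripts, so they do not move independently. Respiratory chain genes encoded in the nucleus had a median of 0.15, with 7 of 53 higher and 3 lower. POLRMT, the mitochondrial RNA polymerase, was 2.17-fold higher (1.70 to 2.76), and LRPPRC, which stabilises mitochondrial mRNAs, was 2.09-fold lower (1.60 to 2.73). TFAM, the mitochondrial DNA packaging factor, was at -0.10 in the authors' deposited table and was not called. On the 23 nuclear chromosomes the median log2 fold change ran from -0.16 to 0.16 and the share of genes called from 25.0% to 33.0%.

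Of the succinyl-CoA ligase subunits, SUCLG2, the GTP-specific beta subunit, was 2.18-fold lower (95% interval 1.68 to 2.82). SUCLG1, the shared alpha subunit, was at 0.15, and SUCLA2, the ATP-specific beta subunit, at -0.19 in the authors' deposited table, neither called. Of 34 genes of the TCA cycle and its entry 7 fell and 3 rose. Of 23 listed glycolysis genes 9 rose and 2 fell, led in the authors' deposited table by PFKFB4 (1.69), which makes the activator of phosphofructokinase, and hexokinase HK1 (1.14). In the hypoxia list, 2 of 15 rose and 2 fell. The falls were the hypoxia factors themselves, HIF1A, 2.48-fold lower (1.85 to 3.31), and EPAS1, at -0.77 in the authors' deposited table, where the target ANGPTL4 rose by 2.27.

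Among called genes, 6 of the 12 largest rises and 5 of the 12 largest falls were readthrough or unnamed loci, whose reads overlap other genes. These values are uncertain, and several have errors above 1. Apart from them, the largest called rise was in ALPP, the placental alkaline phosphatase, 13.2-fold higher (95% interval 10.0 to 17.5). The largest called fall was in CD74. ALPP has near-identical paralogs. In the authors' deposited table KRTAP2-3 (2.95), a hair keratin-associated protein, and DLX3 (2.93), a homeobox factor of epidermis, were among the largest called rises. ST6GALNAC1 (-3.17), a sialyltransferase of mucin glycans, was among the largest called falls in the authors' deposited table.

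**Figure D4:**
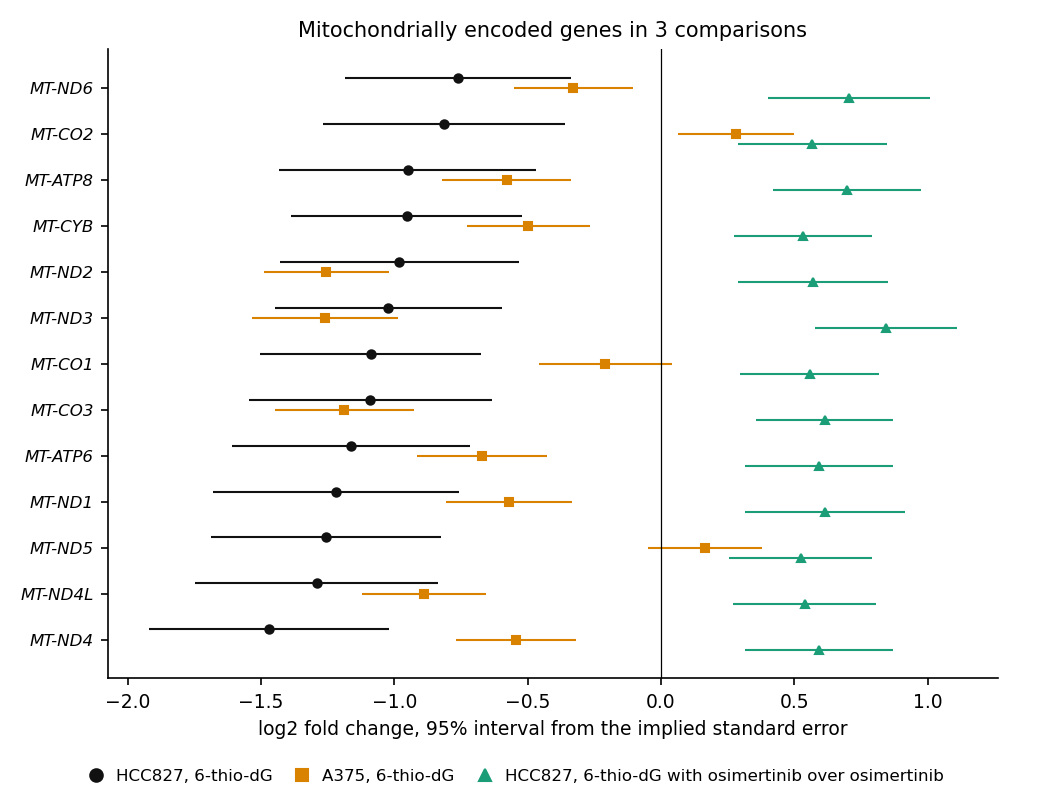
Points are log2 fold changes of the 13 mitochondrially encoded genes in 3 comparisons, with 95% intervals from the implied standard error. All 13 lie below 0 in HCC827 under 6-thio-dG alone (black, median -1.09) and above 0 when it was added to osimertinib (green, median 0.59). In A375 (orange, median -0.57) 10 of the 13 fell and 1 rose.

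The response of A375 to the same drug was compared gene by gene, as a difference of the log2 fold changes. Of 11821 genes with an error in both lines, 28.9% were higher in HCC827 than in A375 and 26.2% lower (two-sided z test, Benjamini-Hochberg adjusted p under 0.05). In A375 itself 31.3% of genes rose and 33.7% fell. By the authors' calls 393 genes rose and 572 fell in both lines, 822 rose in HCC827 and fell in A375, and 540 did the reverse. Of the 59 replication genes 49 were higher in HCC827 than in A375, where 50 fell and 4 rose. E2F1 differed by 4.71 ± 0.25 (SE) on the log2 scale and passed the test. Of 33 mitotic genes 29 were higher in HCC827, and all 33 fell in A375. The mitotic genes CCNB1, KIF20A and PLK1 could not be tested, because their p is listed as 0 in A375. Of 27 p53 targets 21 were lower in HCC827, and 26 rose in A375. CDKN1A differed by -2.96 ± 0.25 and passed.

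The same test set the other groups apart less evenly. Of 21 cytosolic heat shock genes 18 were higher in HCC827 than in A375 and 2 lower, and HSPA8 differed by 2.21 ± 0.23 on the log2 scale and passed. Of 18 listed replication-dependent histones 14 were lower in HCC827. SUCLG2 fell in both lines by the authors' calls, and its difference of 0.11 ± 0.26 did not pass. C3 fell in both as well, with a difference of -0.33 ± 0.23 that did not pass. MHC class II genes differed in 8 of 13 cases, 3 higher and 5 lower in HCC827. Of the 13 mitochondrially encoded genes 10 fell and 1 rose in A375, with a median of -0.57, and 5 were lower in HCC827 than in A375.

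With osimertinib present, 17.3% of genes rose and 17.9% fell under 6-thio-dG. By the authors' calls 467 genes rose and 483 fell in both settings, 145 rose under 6-thio-dG alone and fell with osimertinib, and 177 did the reverse. Of 11828 genes 11.4% were higher under 6-thio-dG alone than with osimertinib and 10.8% lower, by the same test. Of the 59 replication genes 40 were higher under 6-thio-dG alone, while 3 rose and 10 fell in the presence of osimertinib. All 13 mitochondrially encoded genes rose there, and all 13 differed. Of 21 cytosolic heat shock genes 11 were higher under 6-thio-dG alone. Of 18 listed complement and acute phase genes 11 were lower, and C3 differed by -3.33 ± 0.22 and passed. SUCLG2 fell in both settings, and its difference of -0.48 ± 0.25 did not pass. The EGFR list differed in 4 of 18 cases, 2 higher and 2 lower, and EGFR itself by -0.20 ± 0.25, which did not pass.

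**Figure D5:**
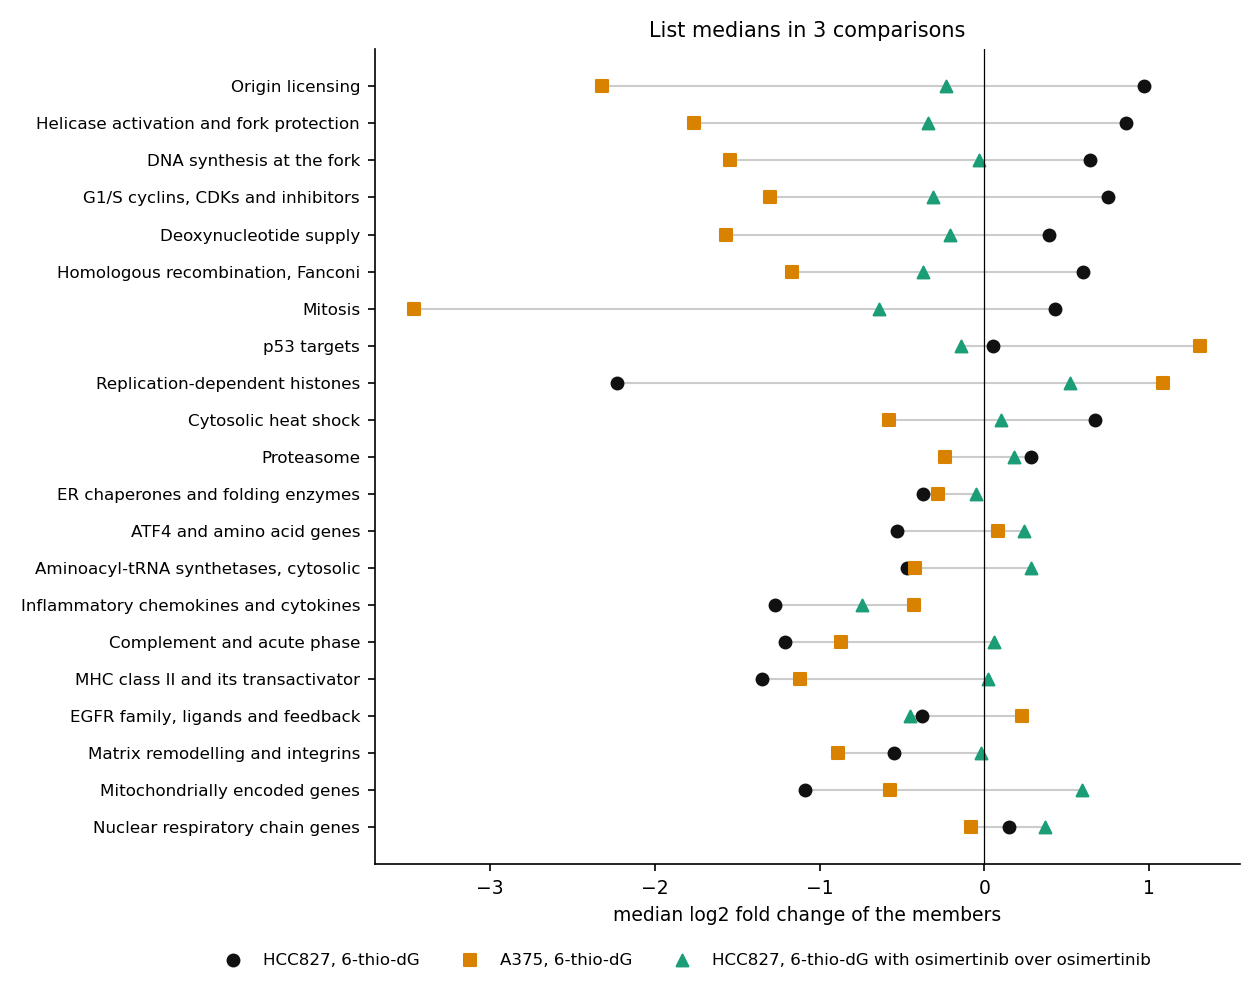
Points are the median log2 fold change of each gene list in 3 comparisons. Replication lists have medians from 0.64 to 0.97 in HCC827 under 6-thio-dG alone (black), from -2.32 to -1.54 in A375 (orange) and from -0.34 to -0.03 in HCC827 when 6-thio-dG was added to osimertinib (green).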

How the data were processed

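RNA from cell lines was sequenced after poly(A) selection, per the labels' protocols. FastQC, Trimmomatic, STAR and the build hg38 are named in the submitters' processing notes. Which tool counted reads and which tested them is not given in the sources used here. Per the file headers, the authors deposited log2 fold changes, each with a raw p-value and an adjusted p-value, for 11828 genes. No column holds a value per library, so depth is unknown and no model could be fitted to libraries. The call used is the authors' adjusted p under 0.05.

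A standard error was implied from each raw p, read as a two-sided normal test, and gives the 95% intervals. Differences between comparisons were tested gene by gene with a two-sided z test and adjusted over all genes by Benjamini-Hochberg, leaving out 7 genes whose p is listed as 0 in A375. The difference test and the removal of a GC trend were tried on simulated data. For the difference test that simulation took implied errors under 0.5 as true, so the implied error itself was not tested. Gene names matched GENCODE release 29 in 99.7% of cases. Named genes are the succinyl-CoA ligase subunits, the 12 largest called rises and the 12 largest called falls. Also named are the 8 largest differences each way, whole complexes, and list members led by the largest called changes. Further list members with small changes were named after their values were seen. The experiment, its members and the gene lists were chosen with earlier results of these data known. Python 3.11.15, scipy 1.17.1 and statsmodels 0.14.6 were used. Alternatives were stricter thresholds, adjustment over the deposited genes, removal of GC and length trends by lowess, a limit on the implied error, omission of mitochondrially encoded genes and histones, and another reading of the p-value, as from a t distribution. Some genes are not reported here.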

Additional observations from a re-analysis of the deposited data

Results flagged for a closer look

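Of 1362 genes called in opposite directions in HCC827 and A375, 1357 passed the test of the difference. Genes whose p is listed as 0 in A375 could not be tested. ATF3, CCNB1, FOXM1 and KIF20A, called in opposite directions in the 2 lines, are among these untested genes. Of 322 genes called in opposite directions in HCC827 under 6-thio-dG alone and with osimertinib, 322 passed. Opposite calls nearly fix the outcome of that test, so these counts are a description and add no evidence. The single genes below had the largest differences in log2 fold change among those that passed. Readthrough and unnamed loci overlap other genes, so their values are uncertain. Several named genes are uncertain too, as given beside them.

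Against A375, the differences of readthrough loci were -37.87 for ISY1-RAB43, -37.57 for PEDS1-UBE2V1, -20.2 for PDCD6-AHRR, 9.91 for RAB4B-EGLN2 and 8.55 for TGIF2-RAB5IF. Unnamed loci were higher in HCC827, by 13.68 for ENSG00000285779, 11.2 for ENSG00000257921 and 10.47 for ENSG00000144785. Among named genes, CDRT4 (-14.47), SPINK1 (-12.1), SFRP4 (-10.68), BLNK (-10.29) and RASGRP1 (-10.15) were lower, and NPR1 (11.47), LRRC3 (8.02) and C1QL1 (6.72) were higher. Of these 8 only RASGRP1 and LRRC3 were called in HCC827, and NPR1 was called in neither line. The standard errors of the 8 differences ran from 0.742 for C1QL1 to 3.99 for NPR1.

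Against 6-thio-dG with osimertinib, readthrough loci differed by -37.34 for PEDS1-UBE2V1, -25.06 for ISY1-RAB43, -15.43 for PDCD6-AHRR, -10.49 for RPL36A-HNRNPH2 and 4.8 for TMEM256-PLSCR3. Unnamed loci differed by -5.97 for ENSG00000273259, -5.85 for ENSG00000249624, 38.91 for ENSG00000285779 and 11.69 for ENSG00000144785. Among named genes, CD74 (-3.71) and HLA-DRA (-3.62) were lower under 6-thio-dG alone, and CDRT4 (8.21), CCNE2 (3.78), VGLL3 (3.77), FAM111B (3.59) and MACROD2 (3.42) were higher. CDRT4 was not called under 6-thio-dG alone, and its difference had a standard error of 2.30.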

How the results depend on the processing

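The 3455 calls became 2239 at an adjusted p under 0.01 and 998 with a change of at least 2-fold, and lay between 3228 and 3609 under the other alternatives run. With the GC trend removed, 1533 genes rose and 1764 fell, and 1366 of the rises and 1488 of the falls remained. For the difference from A375, 6513 genes passed, and between 5315 and 7405 under its alternatives. For the difference from 6-thio-dG with osimertinib, 2636 genes passed, 1559 at an adjusted p under 0.01, and between 2150 and 3661 under the other alternatives. With the GC trend removed that test gave 905 genes higher and 1245 lower, against 1354 and 1282. The medians of the 53 gene lists with at least 5 listed members moved by less than the median error of their members with the GC trend removed, with the GC and length trends removed, and with errors under 0.5 only. Counts of members were less stable: with the GC trend removed, the count that rose moved by over 1.5 times in 7 of the 53 lists and the count that fell in 6. G1 to S genes that fell went from 0 to 2, those of DNA synthesis at the fork from 0 to 1, EGFR family genes that rose from 0 to 1, and epithelial genes that rose from 4 to 2. Across genes, Spearman's rho of the log2 fold change was 0.216 with GC content and -0.172 with exonic length, as a description. With the span of the gene on the genome it was -0.221, and no alternative removed that trend. No paired analysis was possible because the table holds no values per library, and for the same reason no replicate could be left out. Depth is unknown, so which changes rest on few reads cannot be given. An implied error assumes that the p-value came from a test on the printed fold change.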
